A study of Mus musculus with 2 samples.

Results

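The genes described here are the 4 protein-coding genes at the posterior end of the mouse Hoxa cluster, Hoxa9, Hoxa10, Hoxa11 and Hoxa13, and 2 noncoding RNA genes among them, Hottip and Hoxa11os. They were taken by Ensembl identifier and made up 6 of 69691 rows in each gene table and 25 transcripts in each transcript table. All 6 were found in both libraries. The tissue was limb of mouse embryos of strain B6NCrl at 10.5 days, with males and females pooled, from animals with no labelled allele or treatment. It was a single group of 2 pools, replicate 1 from 69 embryos and replicate 2 from 51, and the labels do not say whether forelimbs, hindlimbs or both entered a pool. Each library began with 10 ng of total RNA from which short RNAs had been left out. With a single group, the values answer how much of each RNA the limb holds, in which transcript form, and how far the pools differ.

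Hox genes encode homeodomain transcription factors and are switched on in sequence along their cluster, so that posterior members come on later and nearer the tip of the limb bud. Mouse limb genetics ties groups 9 and 10 to the upper limb, Hoxa11 to the forearm and shank, and Hoxa13 to the hand and foot. Hottip is known from human cells as a noncoding RNA that binds WDR5 and brings MLL histone methyltransferases to posterior HOXA genes. Hoxa11os is transcribed against Hoxa11, and in the mouse limb bud its domain lies distal to that of Hoxa11.

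Ensembl gene rows held 38932257 expected counts in replicate 1 and 42465764 in replicate 2. Defining genes of limb mesenchyme were present, with 6 of 6 at a TPM (a level scaled by transcript length and by library total) of 1 or more in both libraries, among them Prrx1 at 141 and 184 TPM and Msx1 at 311 and 302 TPM. Endothelial genes (4 of 4), erythroid genes (4 of 4) and surface ectoderm genes (6 of 6) passed the same level, so the libraries hold those cells too. In such bulk tissue, fewer cells of a type and less RNA per cell cannot be told apart.

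Hoxa10 was the highest of the coding genes (ENSMUSG00000000938.11, chromosome 6, 52231197 to 52240854, minus strand, mm10). Its level was 146 TPM in replicate 1 and 164 TPM in replicate 2, a mean of 155 ± 12.98 (SD, n = 2, as for all values with ±). Only 1104 and 987 of 21474 protein-coding genes stood above it. Hoxa9 (ENSMUSG00000038227.11, 52223100 to 52231089) followed at 104 and 81.0 TPM, and Hoxa11 (ENSMUSG00000038210.10, 52242106 to 52245810) at 62.6 and 60.2 TPM. Hoxa13 (ENSMUSG00000038203.14, 52257694 to 52260880) stood far below them at 2.25 and 9.28 TPM. Levels thus fell along the chromosome from Hoxa10 towards Hoxa13, with Hoxa9 below Hoxa10 in both libraries.

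The noncoding genes lay at the opposite ends of the range. Hoxa11os (ENSMUSG00000086427.4, 52244393 to 52249799, plus strand) was at 112 TPM in replicate 1 and 209 TPM in replicate 2. Hottip (ENSMUSG00000055408.7, 52262775 to 52267603, plus strand) was at 0.50 and 2.98 TPM, on 29.6 and 184 expected counts. In order of mean level the genes ran Hoxa11os (160 ± 68.2 TPM), Hoxa10, Hoxa9 (92.3 ± 15.97), Hoxa11 (61.4 ± 1.70), Hoxa13 (5.77 ± 4.97) and Hottip (1.74 ± 1.75). Of the 5 neighbouring pairs in this order, 4 were told apart, with the deposited TPM interval of the first gene lying above that of the second in each library. The exception was Hoxa11os with Hoxa10, where Hoxa10 was higher in replicate 1 (139 to 147 against 105.04 to 114 TPM) and Hoxa11os in replicate 2 (198 to 211 against 157 to 165 TPM). Hoxa11os and Hoxa9 were not neighbours in the order, and their intervals overlapped in replicate 1 (105.04 to 114 and 96.8 to 107 TPM).

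**Figure D1:**
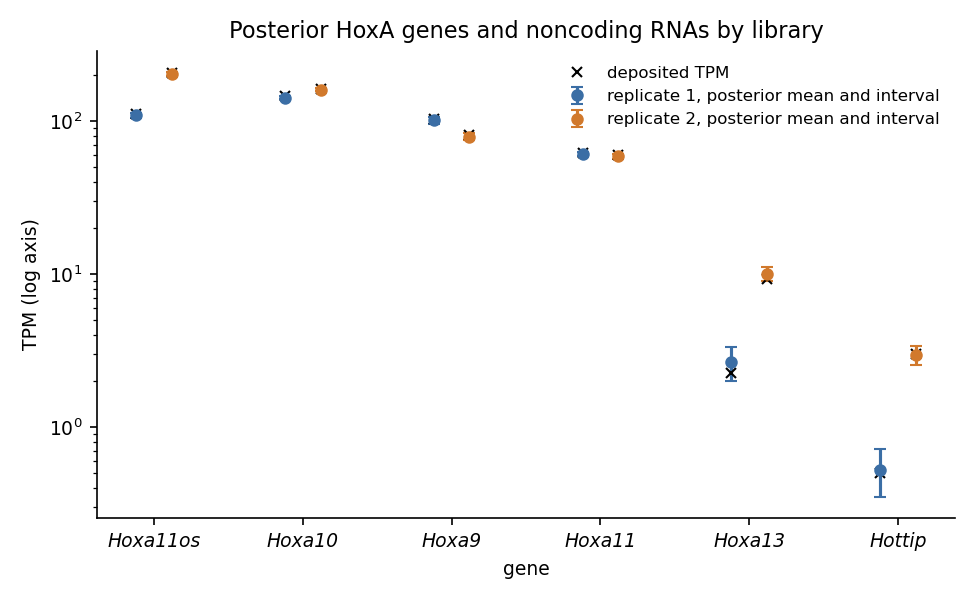
Level in TPM (log axis) of the 6 genes in each library, in order of mean level; circles and bars are the deposited posterior mean and interval, and crosses the deposited TPM. Hoxa10, Hoxa9 and Hoxa11 keep their order in both libraries, while Hoxa13 and Hottip are low and lie far apart between libraries.

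On the TPM scale, the coding genes summed to nearly the same level in both libraries. Hoxa9 and Hoxa11 were lower in replicate 2, and Hoxa10 and Hoxa13 were higher. Hoxa9, Hoxa10, Hoxa11 and Hoxa13 summed to 314.3 TPM in replicate 1 and 314.7 TPM in replicate 2. This was 86.8% and 87.1% of the TPM of the 10 coding genes from Hoxa2 to Hoxa13. Of that 10-gene total, the share of Hoxa10 was 40.3% and 45.5%, that of Hoxa9 28.6% and 22.4%, that of Hoxa11 17.3% and 16.7%, and that of Hoxa13 0.621% and 2.57%. The highest of Hoxa2 to Hoxa7, which pattern more anterior levels of the body, was Hoxa7 at 24.4 and 23.1 TPM, and the lowest was Hoxa4 at 1.33 and 1.51 TPM.

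Reads of these genes can be told apart from those of their paralogs. Effective lengths in the tables equal transcript length less 99 bases, so the estimate treats reads as 100 bases long. No stretch of 100 bases in any annotated transcript of Hoxa9, Hoxa10 or Hoxa13 occurs in a transcript of another gene on either strand. The longest exact run shared by any pair of the 4 coding genes was 17 bases, between Hoxa9 and Hoxa10 and between Hoxa10 and Hoxa11. Hoxa11 and Hoxa11os share 800 exonic bases on opposite strands, and 31.2% of the 100-base stretches of Hoxa11 and 20.9% of those of Hoxa11os occur in the other gene read backwards. Whether strand was used in counting is not stated, so reads from those bases could belong to either gene.

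Among the 6 genes, the pools differed most at Hottip and Hoxa13. Hoxa13 had 107 expected counts in replicate 1 and 592 in replicate 2, a log2 difference of 2.25 (replicate 2 minus replicate 1, after TMM scaling), with a 95% exact binomial interval of 1.97 to 2.58. Hottip differed by 2.35 (1.86 to 3.03). Such an interval holds counting error alone and no variation between pools. The reads carry no molecular identifier and are not independent molecules, so it can understate even that error. One pool against another allows no p-value. Hoxa13 and Hottip were the 2 of 6 genes at least 2-fold higher in replicate 2, all 6 having met the minimum mean expected count of 10, and no member was 2-fold lower. Across 16860 genes tested, 4.03% passed 2-fold upward in replicate 2 and 1.48% passed it downward.

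Hoxa11os had 2716 and 5093 expected counts, and differed by 0.71 (0.64 to 0.78). Its sense partner Hoxa11 had 3642 and 3655 and differed by -0.19 (-0.26 to -0.13), though with scaling to spike-in counts it was at 0.06, where the median of all genes tested moved from 0.01 to 0.26. Hoxa9 was lower in replicate 2 at -0.37 (-0.43 to -0.32), and Hoxa10 was at 0.02 (-0.03 to 0.07), the one member whose interval held 0. The interval lay wholly above 0 for 3 of 6 members and wholly below for 2 of 6, against 27.2% and 26.2% of all genes tested. An interval off 0 was thus no mark of these members. Of the 6, Hoxa13 and Hottip lay beyond 2-fold.

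The rows past the 2-fold line lay at the Hoxa13 end of the cluster. From Hoxa2 to Hoxa10, 13 of 15 annotated rows had a mean count of 10 or more, none was 2-fold higher or lower, and log2 differences ran from -0.37 to 0.45. From Hoxa11 to Evx1, the homeobox gene that closes the cluster, 11 of 17 rows passed and 8 were at least 2-fold higher, beside 4.03% of all genes tested. The 3 others were Hoxa11 at -0.19 (0.06 with spike-in scaling), Hoxa11os at 0.71 and the short row Gm27454 at 0.65. Those past 2-fold were Hoxa13, Hottip, Evx1, Evx1os, the unclassified transcript 9530018H14Rik next to Hoxa13, and the short rows Gm27492, Gm27543 and Gm27817. Evx1os, which runs against Evx1, was at 1.25 and 9.28 TPM with a log2 difference of 2.67 (2.36 to 3.04), and Evx1 was at 1.16 and 3.08 TPM with 1.25 (0.91 to 1.64). 9530018H14Rik, on the strand of Hoxa13 and just past its end, had 21 and 85 counts and differed by 1.73 (1.12 to 2.58). Gm27492 and Gm27543 lie wholly inside Hoxa11os exons on its strand and share reads with it, so they are no separate evidence. Gm27817 (7 and 30 counts) lies within the span of Hoxa11os on its strand and met the count minimum only through replicate 2. The spans of Evx1 and Evx1os overlap on opposite strands. The 8 rows are thus not independent of each other.

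**Figure D2:**
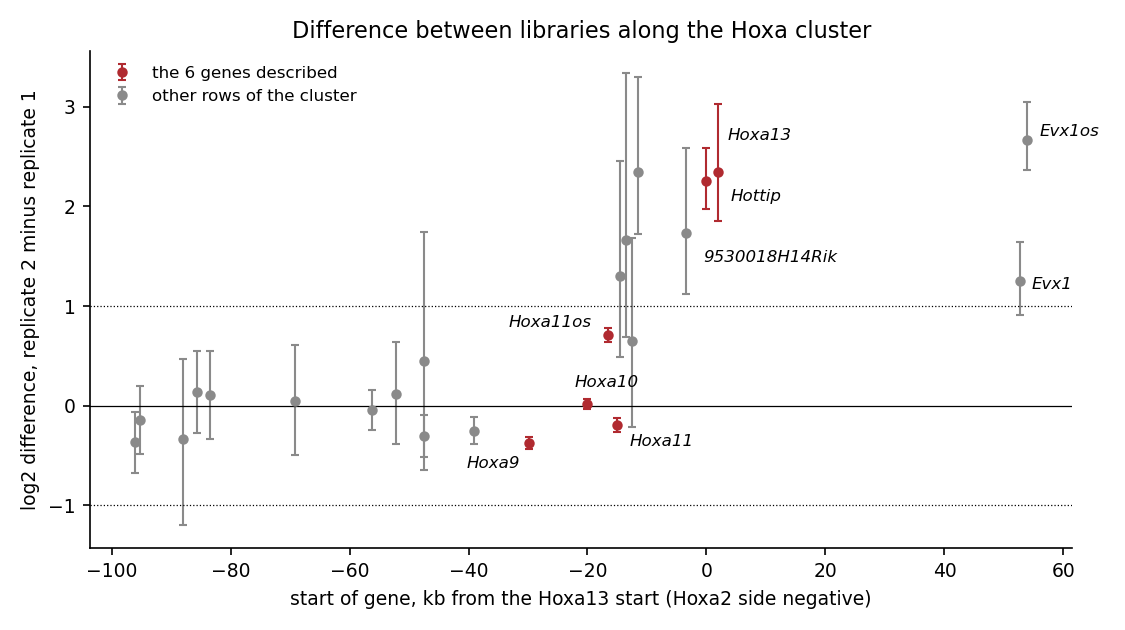
Log2 difference between libraries (replicate 2 minus replicate 1) of each row from Hoxa2 to Evx1 whose expected counts average 10 or more, against the distance in kb of its start from the Hoxa13 start; bars are 95% counting intervals and dotted lines mark 2-fold. Rows from Hoxa2 to Hoxa10 stay within 2-fold, and Hoxa13, Hottip, Evx1os and Evx1 lie above it.

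Hoxa13 and Hottip start 1895 bases apart and are read away from each other. The stretches of 250 bases before their RefSeq starts are shown because these neighbours shared the largest differences among the members. Capitals mark matches, on either strand, to the letters CCAAT or GGGCGG, to TATAAA (the TATA box), to TTTAT (a core of posterior Hox sites) or to TGACAG (a core of Meis sites). Both windows are from the RefSeq table on GRCm38.p6 and are written in the direction of the gene.
Hoxa13, chr6:52260881-52261130, minus strand: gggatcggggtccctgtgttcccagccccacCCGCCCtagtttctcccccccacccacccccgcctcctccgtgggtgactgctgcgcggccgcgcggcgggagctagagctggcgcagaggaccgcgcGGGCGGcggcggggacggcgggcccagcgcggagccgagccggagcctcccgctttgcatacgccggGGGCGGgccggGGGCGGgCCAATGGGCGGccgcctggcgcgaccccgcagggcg
Hottip, chr6:52262525-52262774, plus strand: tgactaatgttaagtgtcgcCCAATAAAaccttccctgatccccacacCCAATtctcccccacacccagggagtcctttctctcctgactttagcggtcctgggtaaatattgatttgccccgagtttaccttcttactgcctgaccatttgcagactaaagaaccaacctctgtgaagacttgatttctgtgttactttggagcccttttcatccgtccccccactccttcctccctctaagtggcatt
The Hoxa13 window was 80.0% G and C with 35 CpG pairs, held 5 matches to GGGCGG and had 1 match to CCAAT directly before the last of them. The Hottip window was 48.4% G and C with 4 CpG pairs, near the medians of 52.4% and 6 over 32851 promoter windows, and held 2 matches to CCAAT and 1 to TTTAT, which overlaps the first CCAAT on the other strand. CCAAT occurred in 33.8% of all windows, GGGCGG in 32.7%, TTTAT in 37.3%, TATAAA in 12.4% and TGACAG in 15.9%, so each match is common, and neither window held the last 2. The RefSeq start of Hoxa13 is that of a transcript with no counts, and the coding transcript that took most of its reads starts within the next 100 bases.

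Most Hoxa13 reads were assigned to a single coding transcript. ENSMUST00000147595, with 2 exons and 888 coding bases, took 94.4 of 107 expected counts in replicate 1 and all 592 in replicate 2. The noncoding ENSMUST00000174763 took the remaining 12.6 counts of replicate 1, which gave it 31.4% of the gene's TPM because it is short. The length that the tables give for the gene was therefore 1884 bases in replicate 1 and 2395 in replicate 2. Hoxa13 was higher in replicate 2 by 5.53 times in counts but by 4.12 times in TPM, since TPM divides by that length. The level of ENSMUST00000147595 itself was 1.54 TPM (interval 1.12 to 1.77) and 9.28 TPM (8.05 to 9.58). The other 4 annotated transcripts had no expected counts in either library. By posterior mean, however, ENSMUST00000147595 held only 54.1% of the gene's TPM in replicate 1 and 87.2% in replicate 2. The form is thus less well resolved than the counts make it look.

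Hottip had 2 annotated transcripts that differ in their first exon and in where they end. ENSMUST00000152875 took 85.4% and 97.0% of its TPM. Hottip was at 22.2% of the TPM of Hoxa13 in replicate 1 and 32.1% in replicate 2, a log2 ratio of -1.90 ± 0.38, with intervals apart in both libraries. Part of the change in this ratio lies in the shorter length given for Hoxa13 in replicate 1. In expected counts, which are not divided by length, the log2 ratio was -1.85 in replicate 1 and -1.68 in replicate 2. The level of Hottip was lower than that of Hoxa13 in each pool, and both were higher in replicate 2. Short annotated rows lie wholly (Gm27383 and Gm27866) or partly (Gm27985) inside Hottip exons on its strand and hold 14.7% of its 100-base stretches, but the 3 rows together took few counts, of which Gm27383 had the most, with 1.37 and 5.18.

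**Figure D3:**
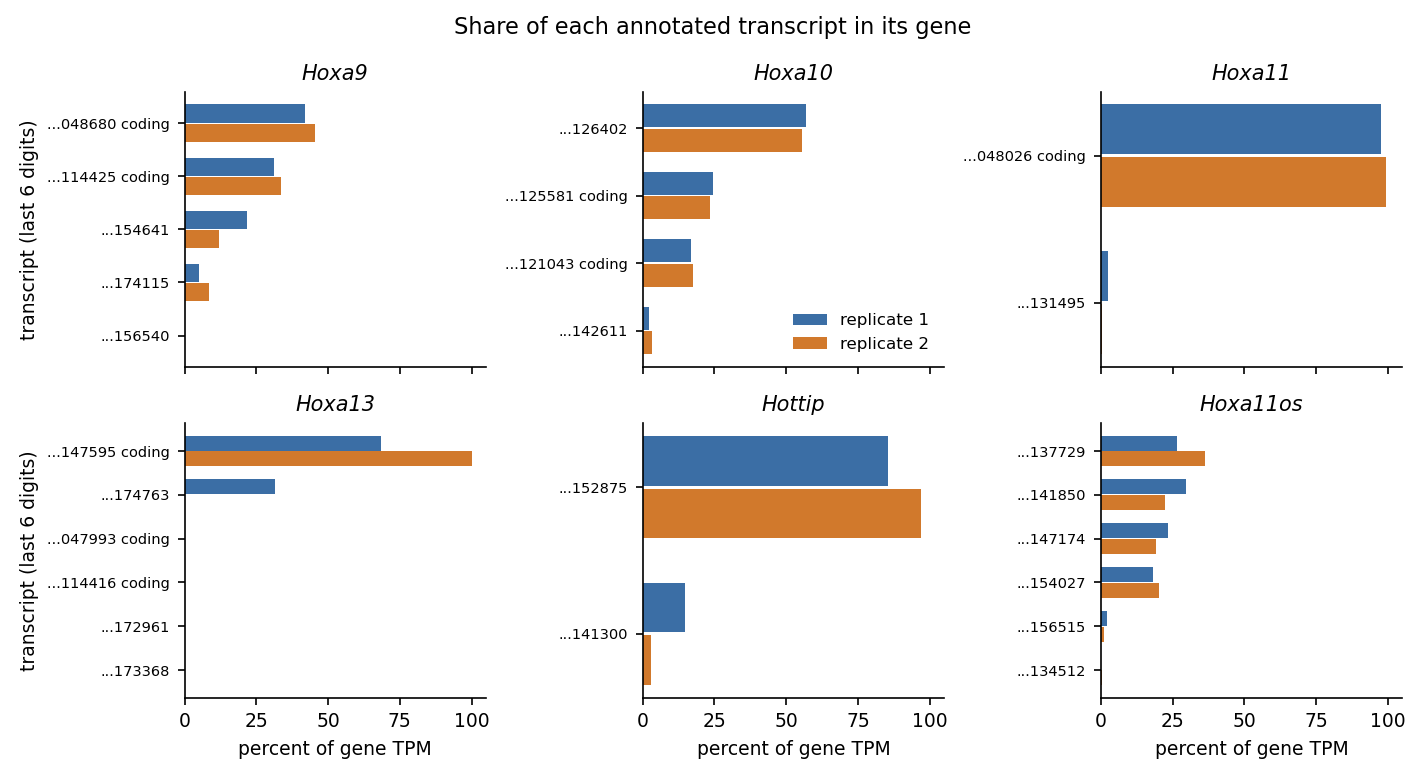
Percent of the gene's TPM taken by each annotated transcript in each library, with transcripts named by their last 6 digits and those with a coding sequence marked. The leading transcript is the same in both libraries for every gene but Hoxa11os, where the shares are spread over 4 transcripts.

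Hoxa11os was the more abundant of the antisense pair per length. The ratio of its TPM to that of Hoxa11 was 1.79 in replicate 1 and 3.47 in replicate 2, with intervals apart in both, a log2 ratio of 1.32 ± 0.67. In expected counts, which are not divided by length, the log2 ratio was -0.42 in replicate 1 and 0.48 in replicate 2, because Hoxa11os transcripts are the shorter. Hoxa11 itself was almost wholly 1 form, the coding ENSMUST00000048026, at 97.6% and 99.5% of its TPM.

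Most of the Hoxa11os level was assigned to transcripts with no exon against Hoxa11. The 800 shared bases, 709 of which are in the 939 coding bases of Hoxa11, belong to 2 of 6 Hoxa11os transcripts. Those 2 took 128 and 189 expected counts, or 2.14% and 1.69% of the gene's TPM. The 4 transcripts with no base against a Hoxa11 exon held 110 and 205 TPM, a log2 ratio between libraries of 0.90. For the whole gene, the log2 TPM difference was 0.89 with a pseudocount of 1, beside 0.71 for counts after TMM scaling. The 2 overlapping transcripts held so little of the TPM that leaving them out could hardly change the difference. The split also rests on how the estimate divided reads of the shared bases, which could belong to either gene. Among the 4 without overlap, ENSMUST00000137729 was at 29.8 and 75.5 TPM, with intervals of 26.3 to 32.1 and 69.5 to 78.4. ENSMUST00000141850, ENSMUST00000147174 and ENSMUST00000154027 were at 33.3, 26.1 and 20.5 TPM in replicate 1 and 46.8, 40.5 and 42.2 TPM in replicate 2. The highest form by TPM was ENSMUST00000141850 in replicate 1, though its interval (27.5 to 38.2) overlapped that of ENSMUST00000137729, and ENSMUST00000137729 in replicate 2.

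**Figure D4:**
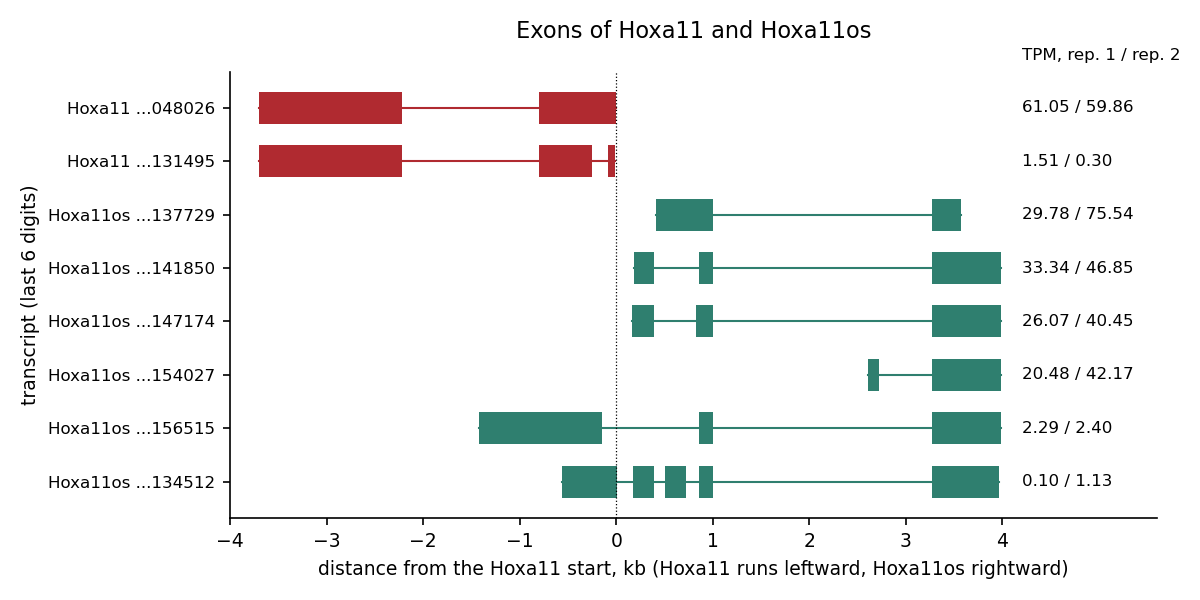
Exons (boxes) of the annotated Hoxa11 and Hoxa11os transcripts, against distance in kb from the Hoxa11 start, with the TPM of each transcript in replicates 1 and 2 at the right. The 2 Hoxa11os transcripts whose exons lie against Hoxa11 are at 2.29 and 0.10 TPM in replicate 1, and the 4 that lie beyond its start hold nearly all of the level.

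Of those forms, 2 start within the stretch just before Hoxa11, at 159 bases (ENSMUST00000147174) and 179 bases (ENSMUST00000141850) from the Hoxa11 start, and run away from it. The 250 bases before Hoxa11 are shown because the sense and antisense RNAs begin at its opposite sides. Capitals mark the 92 bases that are exon of these Hoxa11os transcripts, which read the other strand.
Hoxa11, chr6:52245811-52246060, minus strand: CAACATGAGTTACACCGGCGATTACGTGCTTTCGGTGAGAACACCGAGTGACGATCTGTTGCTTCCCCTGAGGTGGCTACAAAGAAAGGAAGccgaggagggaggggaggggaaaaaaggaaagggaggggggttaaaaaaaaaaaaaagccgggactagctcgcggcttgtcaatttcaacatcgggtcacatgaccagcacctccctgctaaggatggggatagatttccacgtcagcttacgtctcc
None of the 5 motifs above was found in this window. The RefSeq start of Hoxa11os is a different one, and 232 of the 250 bases before it lie inside exon 1 of Hoxa11. The transcript that starts there, ENSMUST00000134512, was at 0.10 and 1.13 TPM.

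Hoxa10 reads were divided over 4 transcripts in nearly the same proportions in both libraries. The highest was ENSMUST00000126402, annotated as a processed transcript without a coding sequence, at 56.7% and 55.6% of the gene's TPM. The coding ENSMUST00000125581, with 1248 coding bases, took 24.4% and 23.6%, and ENSMUST00000121043, which starts farther upstream and has 282 coding bases, took 16.8% and 17.4%. The 2 coding forms together held 41.1% and 41.0% of TPM. These transcripts share the start of their last exon and differ in their first exon, and they also end at different positions within the last. Their 4 starts span 7530 bases.

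Hoxa9 was the coding gene whose forms differed most between pools, apart from Hoxa13. The coding ENSMUST00000048680 led at 42.0% and 45.6% of TPM and took 73.6% of the gene's counts in each library. A second coding form with a shorter coding sequence of 315 bases, ENSMUST00000114425, took 31.3% and 33.5% of TPM. ENSMUST00000154641, a noncoding form whose first exon lies 107 bases past the end of Hoxa10, was at 22.5 TPM (17.1 to 26.8) in replicate 1 and 9.73 TPM (5.63 to 13.7) in replicate 2. The retained-intron form ENSMUST00000174115 went the other way, from 5.23 TPM (4.53 to 5.68) to 6.95 TPM (6.16 to 7.46). The intervals of both forms were apart between the libraries.

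That retained-intron form holds the hairpin of Mir196b (chromosome 6, 52230081 to 52230165), a microRNA known to repress Hox messages. The Mir196b row was listed at 0 in both libraries. The row is 85 bases long with an effective length of 0, so its 0 says nothing about the microRNA. The mature strand is shown, with its seed (bases 2 to 8) in capitals, because its seed has a match in its own host gene: the 3′ untranslated region of the leading Hoxa9 transcript has 1 match, at chr6:52223900-52223922, with the matching bases in capitals.
mmu-miR-196b-5p: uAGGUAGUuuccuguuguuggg
Hoxa9 site: gcaaaaggaaagaaaACTACCTt
The corresponding regions of Hoxa10, Hoxa11 and Hoxa13 held no match. Over equal lengths, 4.80% of 9313 mouse genes with a region of at least 1144 bases had such a match, so 1 in 4 of these genes is a description and not a site shown to act.

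Beside the other clusters, the Hoxa member was the highest of groups 9, 10 and 11. Hoxa9, Hoxa10 and Hoxa11 stood above Hoxd9 (43.7 and 31.9 TPM), Hoxd10 (56.8 and 42.9) and Hoxd11 (28.9 and 26.1) in each library. In group 13, Hoxd13 (7.73 and 14.9 TPM) stood above Hoxa13. Hoxd13 differed between the pools by 0.81 (0.66 to 0.97), an interval that does not reach that of Hoxa13. Hoxd11 at -0.19 (-0.30 to -0.09) was close to Hoxa11, and Hoxd9 at -0.59 (-0.68 to -0.50) was lower in replicate 2, as was Hoxa9. Other paralogs went apart from the Hoxa gene. Hoxd10 was lower at -0.54 (-0.63 to -0.46), unlike Hoxa10, and Hoxc9 was higher at 0.52 (0.283 to 0.775), unlike Hoxa9. Hoxd12 was at 0.65 (0.56 to 0.75). Within Hoxd, the point values thus rose in order from Hoxd9 to Hoxd13. The intervals of Hoxd9 and Hoxd10 overlapped, however, as did those of Hoxd12 and Hoxd13. Of 12 posterior genes of the other clusters, 10 met the count minimum and 2 were at least 2-fold higher, Hoxc10 at 17.9 and 43.1 TPM with 1.13 (1.02 to 1.25) and Hoxc13 at 0.43 and 1.01 TPM with 1.04 (0.43 to 1.80). With spike-in scaling, Hoxc11 and Hoxd13 passed 2-fold as well. By distance in log2(TPM + 1) over the 2 libraries, among 38 other Hox genes, the nearest to Hoxa9 was Hoxa11 (0.83), to Hoxa10 Hoxa9 (1.12), to Hoxa11 Hoxd10 (0.50) and to Hoxa13 Hoxc9 (0.79), a measure over only 2 points.

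**Figure D5:**
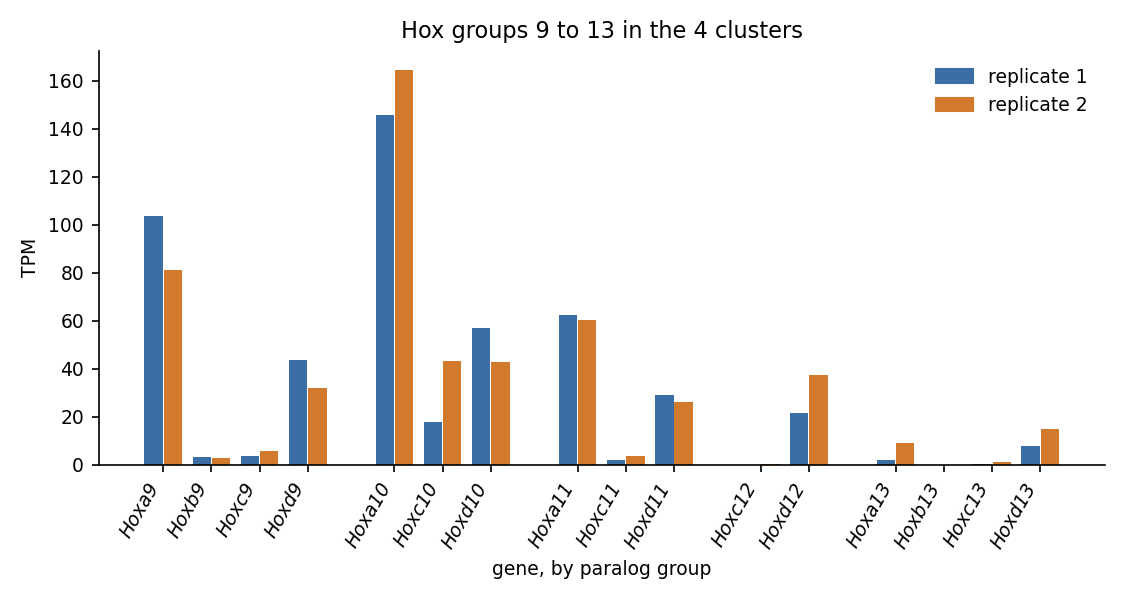
TPM in each library of the genes of Hox groups 9 to 13, ordered by group and cluster. The Hoxa gene is the highest of groups 9, 10 and 11 in both libraries, and Hoxd13 stands above Hoxa13 in group 13.

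Of the partners and reported targets of these genes, none was called 2-fold different after TMM scaling. With spike-in scaling, Pknox2, Bmp2 and Sostdc1 passed 2-fold. TALE homeodomain cofactors of Hox proteins were all present, from Meis1 at 91.2 and 101 TPM down to Pknox2 at 4.93 and 9.79 TPM, and 0 of 9 reached a 2-fold difference, with a median log2 difference of -0.01 against 0.01 for all genes tested. Genes for WDR5 and its MLL complex, the partners of human HOTTIP, had 0 of 6 past 2-fold, with Wdr5 at 79.5 and 78.9 TPM and the methyltransferase gene Kmt2a at 9.41 and 8.60 TPM. Of 7 genes reported downstream of group 13, 0 reached 2-fold and the median difference was 0.32. Among them the signal Bmp2 was at 3.31 and 6.62 TPM with 0.86 (0.66 to 1.06), the BMP antagonist Sostdc1 was at 0.79 (0.56 to 1.04) and the ephrin receptor Epha7 at 0.57 (0.50 to 0.64), but Bmp7 at -0.39 (-0.47 to -0.31) and Shh at -0.74 (-1.31 to -0.23) were lower. Among 9 genes of distal mesenchyme, 0 were 2-fold higher and 1 was 2-fold lower, the zinc-finger gene Sall4 at -1.25 (-1.32 to -1.18), and the median was -0.08. With spike-in scaling, Sall4 was not 2-fold lower and the Notch ligand gene Jag1 was 2-fold higher.

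Some genes of other regions and cell types also differed between the pools, and their part in the Hoxa13 difference was not tested. The hindlimb genes Tbx4 (0.94, 0.86 to 1.03) and Pitx1 (0.79, 0.73 to 0.85) were higher in replicate 2, with Isl1 at 0.14 (-0.03 to 0.32), while the forelimb gene Tbx5 was at -0.26 (-0.34 to -0.19). Of the 3 hindlimb genes, 0 reached 2-fold (Tbx4 and Pitx1 did with spike-in scaling), and they summed to 94.2 and 179 TPM. Hoxa13 is also active in the tail bud, whose markers were low but not absent. Cdx1 was at 2.45 and 0.70 TPM, so that in replicate 1 it stood beside Hoxa13 at 2.25 TPM, and T was at 1.03 and 0.78 TPM. Of the tail bud genes, 0 of 10 reached 1 TPM in both libraries, their sum was 5.07 TPM in replicate 1 and 4.53 TPM in replicate 2, Hoxb13 had no counts in either and Cdx4 none in replicate 1. Of these sums, Cdx1 held 2.45 TPM in replicate 1 and 0.70 TPM in replicate 2. Of the 6 tail bud genes with enough counts, Wnt3a (8 and 33 counts, 1.64) and Hoxc13 were 2-fold higher in replicate 2 and Cdx1 (-1.88) was 2-fold lower. The median log2 difference of the 6 was 0.73, but Wnt3a and Tbx6 met the count minimum only through replicate 2. Below that minimum, Cdx2 (8 and 3 counts, -1.14) and Nkx1-2 (5.89 and 2 counts, -1.12) were lower, and Cdx4 (0 and 2 counts) was higher. With spike-in scaling, Tbx6 (8 and 20 counts) was 2-fold higher as well, 1 gene was 2-fold lower and the median of the 6 was 0.96. Of somite genes, Pax1 was at 2.15 and 9.12 TPM with 2.01 (1.75 to 2.30), Uncx was lower at 1.03 and 0.46 TPM with -1.30 (-2.18 to -0.63), Meox2 was at 20.4 and 36.6 TPM with 0.71 (0.61 to 0.81), and Meox1 was at 9.34 and 10.2 TPM, with sums of 55.7 and 81.3 TPM over 5 genes. Surface ectoderm genes summed to 237 and 185 TPM, with 5 of 6 intervals below 0. Erythroid genes summed to 8563 and 7512 TPM, with 4 of 4 intervals below 0 and a median of -0.47. Endothelial genes summed to 138 and 144 TPM, with 2 of 4 intervals below 0. Those 2 were Kdr (21.4 and 21.5 TPM) and Egfl7 (80.6 and 81.7 TPM), both slightly higher in replicate 2 by TPM. Of all genes tested, 26.2% had an interval below 0. With spike-in scaling, the median was 0.19 for endothelial, -0.16 for surface ectoderm and -0.21 for erythroid genes, against 0.26 for all genes tested.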

How the data were processed

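RNA was extracted with the mirVana method, per the labels' protocols. Per the sample text files, the authors quantified transcriptome alignments on mm10 with GENCODE M4. The sources used here do not give the aligner, quantifier or strand use. The deposited tables give expected counts (estimated reads), TPM and FPKM per row, posterior means with interval bounds of unstated level, and the percent of gene TPM per transcript.

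Symbols, exons and coordinates came from GENCODE M21 (GRCm38, the mm10 assembly), matched without version for 42462 of 43346 Ensembl rows. All 25 member transcripts had equal lengths in both. The 96 spike-in rows and 26249 other rows (3.89% and 3.45% of counts together) were left out of library sizes.

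Expected counts were rounded, scaled by TMM in edgeR 4.0.16 (R 4.3.3, prior count 2) and differenced over all Ensembl rows. A call needed 2-fold at a mean count of 10. The difference step was tested on simulated data. DESeq2 1.42.0 size factors, spike-in scaling and TPM with pseudocounts of 1 and 0.1 were alternatives. Pairs of genes were called where deposited TPM intervals were apart in both libraries. Python 3.11.15, pandas 2.3.3, numpy 2.4.6 and matplotlib 3.10.9 did the rest. The 2 pools are separate biological replicates per the labels.

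Members and gene lists were chosen with earlier results of these data known. Named genes are the members, their transcripts, rows from Hoxa2 to Evx1, members of the fixed lists and the Hox gene nearest to each coding member. One gene that the rule would name is not reported here. Promoter and microRNA sequences are from RefSeq (GRCm38.p6), where all 6 members matched.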

Additional observations from a re-analysis of the deposited data

How the results depend on the processing

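No paired analysis was possible because there is only 1 group. Of 63 values under another setting, leaving out of a pool aside, 50 were scored as unchanged. Differences had to keep their direction and side of the 2-fold line, and levels, shares and ratios to move by less than 1 SD. That SD comes from the same 2 pools, so values that differ most between pools could move far and still be scored as unchanged. The leading share of Hoxa13, with an SD of 22.2, went from 84.3% to 70.7% by posterior mean and was scored so. Counts of genes or pairs had to stay within a set ratio of the main count. The difference of Hoxa11 turned from -0.19 to 0.061 with spike-in scaling, which moves all genes up. Rescaling TPM to Ensembl rows raised all genes of a library by the same factor. Hoxa10 (155 to 169 TPM) and Hoxa11 (61.4 to 66.9) were scored as moved because their SDs were small for their levels. Hoxa9 (92.3 to 101 TPM), with a larger SD, was scored as unchanged. The Hoxa11os to Hoxa11 log2 ratio moved from 1.32 to 0.0278 in expected counts, which are not divided by length. Hoxa13 and Hottip stayed beyond 2-fold under all 4 other scalings. The 680 genes at least 2-fold higher became 1120 with spike-in scaling, 171 with a TPM pseudocount of 1, 1595 with no filter and 160 at a mean count of 100. The 249 genes 2-fold lower became 125, 40, 1179 and 38 in the same order, and 149 with a TPM pseudocount of 0.1. Leaving out a pool leaves the value of the other and no difference to compute; with 2 pools it always moves a mean by less than 1 SD, so it says nothing about stability. Hottip, at 29.6 counts in replicate 1, is the member most limited by depth.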

Other observations

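Of 6 genes that flank the cluster, 1 was at least 2-fold higher in replicate 2, Evx1 at 1.25 (0.91 to 1.64). Hibadh, Tax1bp1, Jazf1, Skap2 and Snx10 lay at -0.02 (-0.10 to 0.06), 0.20 (0.15 to 0.25), 0.03 (-0.40 to 0.45), 0.05 (-0.11 to 0.21) and -0.22 (-0.36 to -0.08) in log2 difference, replicate 2 minus replicate 1. Their levels ran from Jazf1 at 1.59 and 1.81 TPM to Tax1bp1 at 85.6 and 99.6 TPM. Of 4 other noncoding RNAs of the cluster with enough counts, 1 was at least 2-fold higher, Evx1os at 2.67. Hotairm1 was at 13.9 and 9.53 TPM with -0.39 (-0.87 to 0.07), Hoxaas3 at 4.83 and 5.53 TPM with 0.13 (-0.27 to 0.55) and Hoxaas2 at 2.57 and 2.66 TPM with -0.15 (-0.49 to 0.19), while Halr1 had no counts.

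Of the short rows that lie wholly or partly in Hoxa11os exons, Gm27543 had 17.0 and 108 counts, Gm27492 13.02 and 40.2, and Gm27454 15.99 and 29.5, with 5 such rows taking 46.0 and 178 counts in all beside 2716 and 5093 for Hoxa11os. Gm27543 stood at 8.19 and 50.04 TPM over an effective length of 78 bases, so its TPM rests on few read positions.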
